A study of Mus musculus with 4 samples.

Results

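Genes of mast cells, basophils and eosinophils were examined in AML c-Kit+ cells as a set of 10 chosen by symbol (Prg2, Prg3, Epx, Cpa3, Mcpt8, Fcer1a, Fcer1g, Gata2, Hdc and Il5ra), and all 10 were among the 23552 genes with an FPKM. FPKM is the number of fragments of a gene per kilobase of its exons, scaled to the fragments of the library, so levels can be compared between genes. RNA-Seq covered c-Kit+ leukemic cells enriched from bone marrow of moribund C57BL/6 mice with MLL-AF9-induced AML. The 2 controls (replicates 3 and 4) had the genotype control-eGFP overexpression, and the 2 SUV-OE libraries (replicates 2 and 3) had Suv39h1-eGFP overexpression. Leukemic cells of both groups carried MLL-AF9, were serially transplanted cells infected with lentivirus, and were sorted for eGFP before transplantation into sublethally irradiated mice. The methods give 8-week-old female C57BL/6J mice, and the irradiated hosts keep blood cells of their own. The sources do not say how many mice gave 1 library, so p-values measure the spread between these libraries, which may be technical.

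Mast cells, basophils and eosinophils store preformed proteins in granules. Eosinophil granules hold major basic proteins (Prg2 and Prg3), a peroxidase (Epx) and ribonucleases, while mast cells and basophils hold histamine, made by the enzyme of Hdc, and proteases such as those of Cpa3 and Mcpt8. Their precursors in bone marrow depend on GATA transcription factors. Mast cells and basophils bind IgE through a receptor with chains from Fcer1a and Fcer1g, and eosinophils respond to IL-5 through Il5ra.

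Suv39h1, the overexpressed H3K9 methyltransferase gene, showed 12.4 and 12.4 FPKM in the controls against 75.3 and 81.2 under SUV-OE (limma log2 fold change 2.56, SE 0.11, adjusted p = 0.00866). Reads recovered from the FPKM numbered 20151319 to 23649132 a library. DEGs, meaning genes with an adjusted p under 0.05 and a log2 fold change of 1 or more in size, made up 1.22% of the 13736 tested genes (168 genes, 0.815% up and 0.408% down). Differences were taken on log2(FPKM + 1), which understates the change of low genes.

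Cpa3, a mast cell protease gene, Epx, the eosinophil peroxidase gene, and Gata2, a transcription factor gene, were higher in each SUV-OE library than in either control, with ratios of mean FPKM of 3.31, 4.92 and 1.700. Prg3, an eosinophil granule gene, and Hdc, the histamine synthesis gene, were lower in each, with ratios of 0.307 and 0.859. In Prg2, Mcpt8 and Fcer1g the groups overlapped. By limma 0 of the 8 members with a mean FPKM of 0.5 or more were DEGs, and 4 had an unadjusted p under 0.05, where 20.7% of all tested genes did. The 3 with SUV-OE on top compare with 25.4% of all tested genes, and the 2 with SUV-OE underneath compare with 28.4%. Il5ra and Fcer1a were under the FPKM filter, and of them limma-voom on recovered reads tested Il5ra. The median log2 fold change of the 8 was 0.47, against -0.022 over all tested genes, and it was -0.013 without control replicate 3, so its direction rested on that library.

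**Figure D1:**
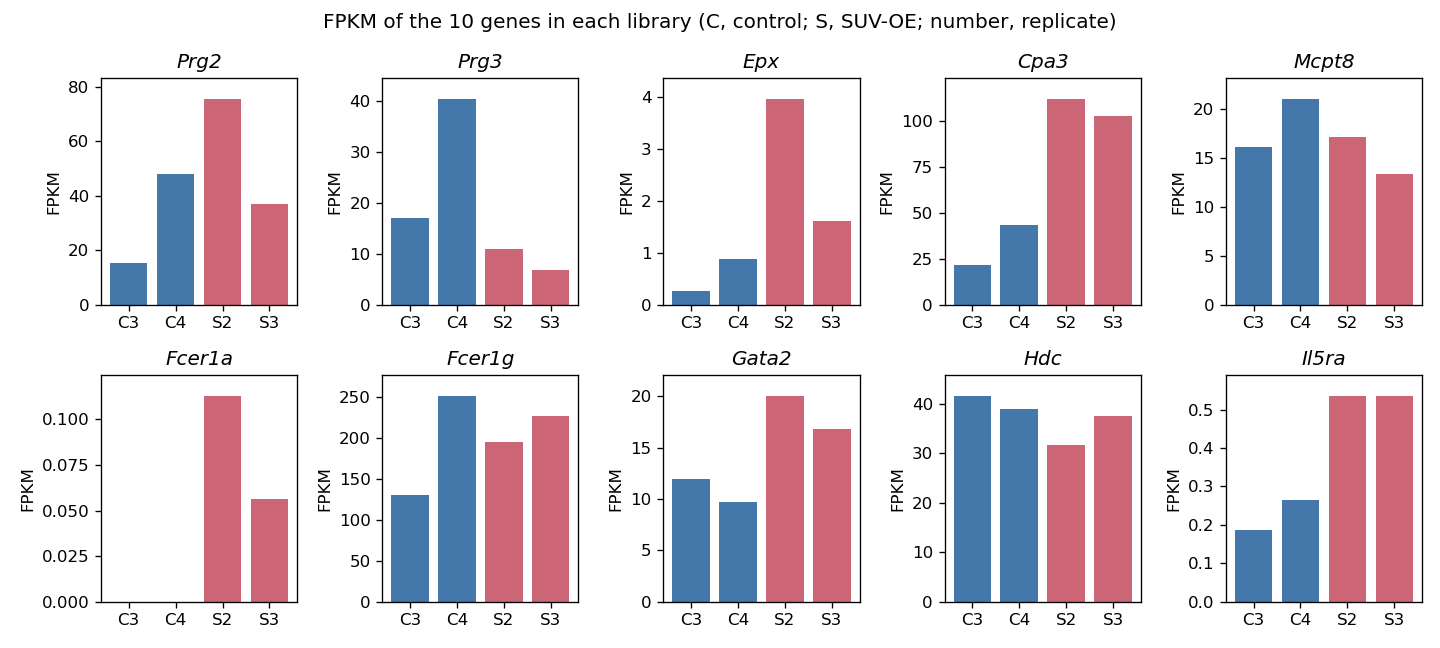
FPKM of each of the 10 genes in each library (linear axes from 0, blue C3 and C4 for control replicates 3 and 4, red S2 and S3 for SUV-OE replicates 2 and 3). The red bars both top the blue ones in Epx, Cpa3 and Gata2 and both stay under them in Prg3 and Hdc.

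Prg2 and Prg3 are neighbours that encode eosinophil granule proteins, and Prg3 was lower in each SUV-OE library while Prg2 overlapped between groups. Prg2 (ENSMUSG00000027073, chromosome 2, 84980461 to 84983632, plus strand, mm10) encodes major basic protein and had 15.2 and 47.9 FPKM in control replicates 3 and 4 and 75.7 and 37.1 FPKM in SUV-OE replicates 2 and 3. Control replicate 4 lay above SUV-OE replicate 3, so the groups overlapped. The difference did not pass the test (limma log2 fold change 0.94, SE 0.62, adjusted p = 0.447), and the log2 fold change was 0.14 without control replicate 3 and 1.74 without control replicate 4.

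Prg3 (ENSMUSG00000027072, chromosome 2, 84988215 to 84993886, plus strand, mm10) encodes a homolog of major basic protein and begins 4.58 kb past the end of Prg2. It had 17.1 and 40.5 FPKM in control replicates 3 and 4 and 10.9 and 6.82 FPKM in SUV-OE replicates 2 and 3, over 315, 648, 183 and 115 reads. Each SUV-OE library was under each control. This too missed the threshold (limma log2 fold change -1.51, SE 0.44, adjusted p = 0.171), with log2 fold changes of -2.11 to -0.91 when any one library was left out.

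The ratio of Prg2 to Prg3 within a library is free of library scaling. It was 0.888 and 1.18 in the controls and 6.96 and 5.44 under SUV-OE, so these genes had similar levels in the controls, while Prg2 was several times higher than Prg3 under SUV-OE. On the log2 scale the ratio differed by 2.59, with an SD of 0.29 between controls and 0.25 between SUV-OE libraries. A two-sided exact permutation test gave p = 0.333, the smallest that 2 against 2 allow, and the pair was chosen after its values were seen. The annotated transcripts of Prg2 and Prg3 shared 0 stretches of 31 bases.

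**Figure D2:**
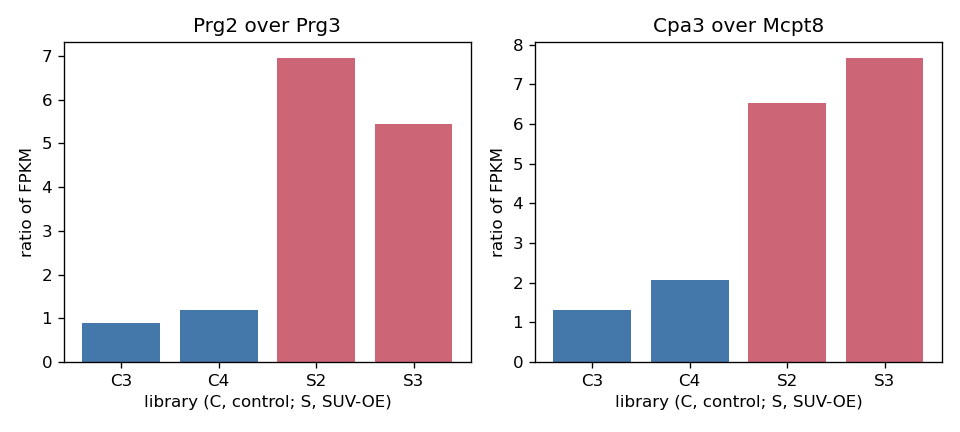
Ratio of FPKM within each library, Prg2 to Prg3 at left and Cpa3 to Mcpt8 at right (linear axes from 0, blue for control replicates 3 and 4, red for SUV-OE replicates 2 and 3). Prg2 to Prg3 goes from 0.888 and 1.18 to 6.96 and 5.44, and Cpa3 to Mcpt8 from 1.32 and 2.06 to 6.53 and 7.68.

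The genes that flank this pair on chromosome 2 were compared too. P2rx3, an ATP-gated ion channel gene 4.697 kb beyond Prg3, showed 9.53 and 7.798 FPKM in the controls against 1.88 and 1.79 under SUV-OE and was a down-regulated DEG (limma log2 fold change -1.76, SE 0.14, adjusted p = 0.0253). Slc43a3, a transporter gene 21.95 kb before Prg2, showed 34.5 and 35.96 FPKM in the controls against 23.8 and 26.6 under SUV-OE (limma adjusted p = 0.139). Ssrp1, which encodes a subunit of a histone chaperone, showed 121 and 108 FPKM in the controls against 91.8 and 93.2 under SUV-OE (limma adjusted p = 0.296). Of Slc43a3, Prg2, Prg3, P2rx3 and Ssrp1, all but Prg2 had their SUV-OE libraries under both controls, and P2rx3 alone of these 5 passed the test. Of all tested genes, 28.4% had that order. Within 100 kb of the pair, Tnks1bp1 (limma log2 fold change -0.070, SE 0.16, adjusted p = 0.829) and Rtn4rl2, which was under the FPKM filter, had groups that overlapped. P2rx3 and Ssrp1 overlap at their ends, where reads without strand cannot be told apart.

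**Figure D3:**
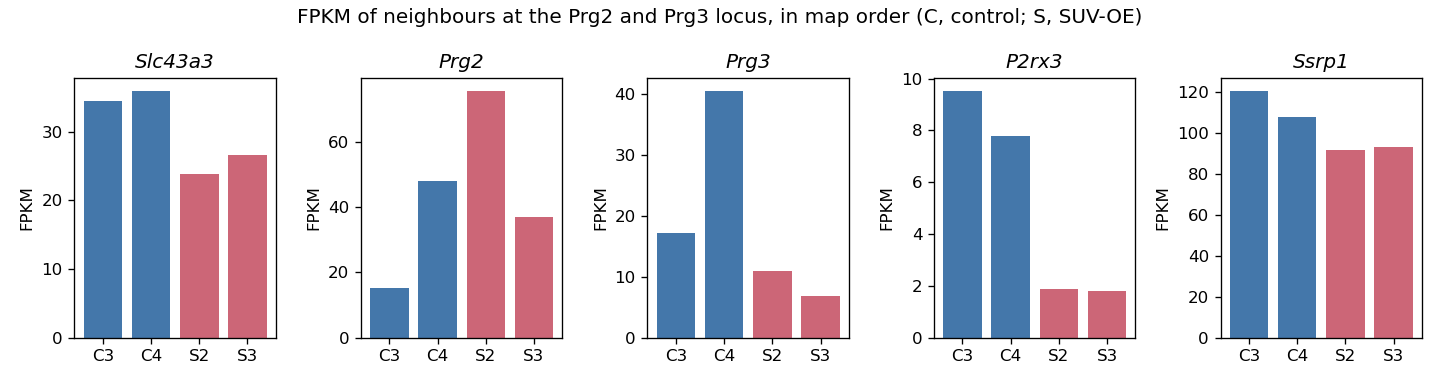
FPKM of 5 genes in map order on chromosome 2, per library (linear axes from 0, blue C3 and C4 for control replicates 3 and 4, red S2 and S3 for SUV-OE replicates 2 and 3). In all but Prg2 both red bars stay under both blue bars.

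Epx (ENSMUSG00000052234, chromosome 11, 87864000 to 87875536, minus strand, mm10) encodes eosinophil peroxidase and was low, with 0.263 and 0.866 FPKM in control replicates 3 and 4 and 3.95 and 1.603 FPKM in SUV-OE replicates 2 and 3. The reads behind these levels were 14, 40, 192 and 78. Each SUV-OE library was above each control, and the test was not passed (limma log2 fold change 1.23, SE 0.38, adjusted p = 0.181). The log2 fold change was 0.76 without SUV-OE replicate 2, 1.69 without SUV-OE replicate 3 and 2.15 with a pseudocount of 0.1. On recovered reads limma-voom gave a log2 fold change of 2.42 with an adjusted p of 0.0867. Mpo, the myeloperoxidase gene 59.6 kb away, showed 369 and 349 FPKM in the controls against 292 and 337 under SUV-OE (limma adjusted p = 0.5895). Lpo, the lactoperoxidase gene beside it, showed 0.197 and 0.208 FPKM in the controls against 0.449 and 0.431 under SUV-OE and was under the FPKM filter (limma-voom log2 fold change 1.09, adjusted p = 0.171).

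Other eosinophil genes were set beside these. Ear1, Ear2 and Ear6 encode eosinophil ribonucleases, and as close paralogs their reads are hard to divide. Ear1 showed 0.423 and 2.19 FPKM in the controls against 10.3 and 4.55 under SUV-OE (limma adjusted p = 0.155). Ear2 showed 1.501 and 4.53 FPKM in the controls against 9.95 and 7.51 under SUV-OE (limma adjusted p = 0.168). Ear6 showed 0.163 and 0.564 FPKM in the controls against 5.07 and 1.61 under SUV-OE (limma adjusted p = 0.162). In each, both SUV-OE libraries were on top, as in Epx. Siglecf, a surface lectin gene, showed 27.4 and 31.5 FPKM in the controls against 58.2 and 52.6 under SUV-OE (limma log2 fold change 0.89, SE 0.13, adjusted p = 0.0648). Ccr3, the eotaxin receptor gene, showed 0.1099 and 0.326 FPKM in the controls against 0.775 and 0.619 under SUV-OE and was under the FPKM filter (limma-voom log2 fold change 1.86, adjusted p = 0.0919). In this eosinophil list, 8 of 13 listed genes were tested, and 0 were DEGs by limma (0 of 9 by limma-voom). Of the 8, 4 had an unadjusted p under 0.05, against 20.7% of all tested genes. SUV-OE libraries were both above the controls in 6 and both below in 1, against 25.4% and 28.4% of all tested genes. The median log2 fold change was 1.13. Retnlg and Adgre1, both above, are also in the neutrophil list and the monocyte and macrophage list, respectively.

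Several genes shared an order of the replicates. Prg2, Prg3, Epx, Ear1, Ear2 and Ear6 were higher in control replicate 4 than in control replicate 3, by 2.37-fold in Prg3 to 5.19-fold in Ear1. All 6 were lower in SUV-OE replicate 3 than in SUV-OE replicate 2, at ratios of 0.317 in Ear6 to 0.754 in Ear2. Among all tested genes 20.2% had both of these orders, and these 6 were grouped after their values were seen. Cpa3 and Mcpt8 had the same orders, at 2.04 and 1.31 for control replicate 4 to 3. Their ratios of SUV-OE replicate 3 to 2 were 0.917 and 0.779. The orders were thus not particular to eosinophil genes. In the members other than Prg2, Prg3 and Epx the ratio of SUV-OE replicate 3 to 2 ran from 0.779 in Mcpt8 to 1.19 in Hdc, leaving out Fcer1a at 1 and 2 reads. The median absolute difference of log2(FPKM + 1) over the 8 tested members was 0.75 between controls and 0.29 between SUV-OE libraries, against 0.22 and 0.13 over all tested genes.

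**Figure D4:**
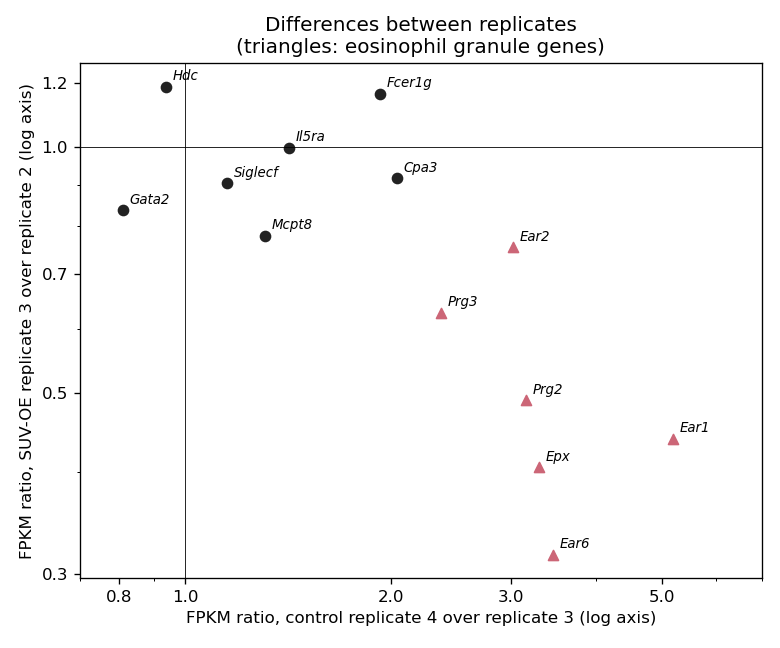
FPKM ratio of control replicate 4 to 3 (x, log axis) against that of SUV-OE replicate 3 to 2 (y, log axis), 1 point a gene, for the members except Fcer1a and for Ear1, Ear2, Ear6 and Siglecf. The triangles of eosinophil granule genes lie at 2.37 or more on x and 0.754 or less on y, and the remaining genes lie higher on y.

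Cpa3 and Mcpt8, protease genes of mast cell and basophil granules, are taken next. Cpa3 (ENSMUSG00000001865, chromosome 3, 20215620 to 20242181, minus strand, mm10) encodes carboxypeptidase A3 of mast cells and had 21.3 and 43.5 FPKM in control replicates 3 and 4 and 112 and 103 FPKM in SUV-OE replicates 2 and 3. Each SUV-OE library was over 2-fold above the higher control. The limma test was missed (limma log2 fold change 1.78, SE 0.34, adjusted p = 0.0951), while limma-voom on recovered reads called Cpa3 a DEG, with a log2 fold change of 1.83 and an adjusted p of 0.0192, where 4.74% of the genes tested that way were DEGs. When any one library was left out the log2 fold change was 1.28 to 2.28.

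Mcpt8 (ENSMUSG00000022157, chromosome 14, 56082166 to 56085273, minus strand, mm10) encodes a serine protease of basophils and had 16.1 and 21.1 FPKM in control replicates 3 and 4 and 17.1 and 13.4 FPKM in SUV-OE replicates 2 and 3. The groups overlapped (limma log2 fold change -0.27, SE 0.19, adjusted p = 0.481). Within a library, Cpa3 to Mcpt8 was 1.32 and 2.06 in the controls and 6.53 and 7.68 under SUV-OE, a difference of 2.10 on the log2 scale (exact permutation p = 0.333, two-sided, the smallest possible, pair chosen after its values were seen). Ctsg, the cathepsin G gene of neutrophil granules 14.6 kb from Mcpt8, showed 2236 and 2787 FPKM in the controls against 1226 and 1353 under SUV-OE (limma adjusted p = 0.198).

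Cma1, Prss34 and Cd200r3, markers of mature mast cells or basophils, stood near 0, unlike Cpa3 and Mcpt8. Of 14 mast cell protease and storage genes 9 had no FPKM under their symbols, the tryptases Tpsb2 and Tpsab1 and the chymase Mcpt4 among them. Cma1, another chymase gene, showed 0 and 0.1104 FPKM in the controls against 0.157 and 0.367 under SUV-OE. Prss34, a basophil protease gene, showed 0 and 0.146 FPKM in the controls against 0.417 and 0.231 under SUV-OE. Cd200r3, a receptor gene of basophils and mast cells, showed 0 and 0.0396 FPKM in the controls against 0.0848 and 0.122 under SUV-OE. Itgb7, an integrin gene in the basophil list, showed 5.79 and 7.09 FPKM in the controls against 16.3 and 11.98 under SUV-OE (limma adjusted p = 0.0892). Il18rap, a chain of the IL-18 receptor in the same list, lay on the other side, with 9.699 and 7.76 FPKM in the controls against 4.63 and 4.099 under SUV-OE (limma log2 fold change -0.85, SE 0.15, adjusted p = 0.08397). In the basophil list, 4 of 11 listed genes were tested, and 0 were DEGs by limma. By limma-voom 2 of 5 were DEGs, against 4.74% of all genes tested that way. Of the 4, 3 had an unadjusted p under 0.05, against 20.7% of all tested genes. SUV-OE libraries were both above the controls in 3 and both below in 1, against 25.4% and 28.4% of all tested genes. The median log2 fold change was 0.54. The limma-voom DEGs were Itgb7 and Cd200r4, a receptor gene named after its values were seen, with 0.151 and 0.232 FPKM in the controls against 0.964 and 0.963 under SUV-OE (limma adjusted p = 0.125). Of the mast cell list 2 genes were tested, Slc18a2 and Srgn, and 0 were DEGs by limma (0 of 3 by limma-voom), with 1 at an unadjusted p under 0.05. In bulk RNA, fewer cells of a type and less RNA per cell cannot be told apart.

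Genes of histamine handling were not all on one side of the controls. Hdc (ENSMUSG00000027360, chromosome 2, 126593667 to 126619299, minus strand, mm10) encodes histidine decarboxylase and had 41.6 and 38.9 FPKM in control replicates 3 and 4 and 31.6 and 37.5 FPKM in SUV-OE replicates 2 and 3. Both SUV-OE libraries were slightly under the controls (limma log2 fold change -0.22, SE 0.14, adjusted p = 0.423), and after quantile normalization the groups overlapped. Slc18a2, whose transporter loads histamine into granules, showed 0.554 and 1.37 FPKM in the controls against 2.28 and 1.997 under SUV-OE (limma adjusted p = 0.212). Hnmt, whose enzyme inactivates histamine, showed 15.3 and 17.8 FPKM in the controls against 11.2 and 13.5 under SUV-OE (limma adjusted p = 0.229). Hrh2, a histamine receptor gene, showed 1.14 and 0.786 FPKM in the controls against 3.09 and 2.66 under SUV-OE (limma log2 fold change 0.98, SE 0.17, adjusted p = 0.0795). In the histamine list, which holds Hdc, 4 of 7 listed genes were tested, and 0 were DEGs by limma. By limma-voom 1 of 4 was a DEG, against 4.74% of all genes tested that way. An unadjusted p under 0.05 was found for 3, against 20.7% of all tested genes. SUV-OE libraries were both above the controls in 2 and both below in 2, against 25.4% and 28.4% of all tested genes. The median log2 fold change was 0.25.

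The chains of the IgE receptor lay far apart in level. Fcer1a (ENSMUSG00000005339, chromosome 1, 173221284 to 173227214, minus strand, mm10), the IgE-binding alpha chain, was listed at 0 in both controls and at 0.113 and 0.0564 FPKM under SUV-OE, from 2 reads and 1 read. All 4 values were under the FPKM of 3 reads, 0.155 to 0.178, so a difference was not detectable at this depth. Ms4a2, the beta chain, showed 0.365 and 0.485 FPKM in the controls against 0.881 and 0.7798 under SUV-OE (limma adjusted p = 0.308). Fcer1g (ENSMUSG00000058715, chromosome 1, 171229572 to 171234365, minus strand, mm10), the gamma chain that other Fc receptors share, had 130.3 and 252 FPKM in control replicates 3 and 4 and 196 and 228 FPKM in SUV-OE replicates 2 and 3, and its mean was above that of 98.3% of tested genes. The SUV-OE libraries lay between the controls (limma log2 fold change 0.22, SE 0.34, adjusted p = 0.749), and the log2 fold change was -0.25 without control replicate 3 and 0.69 without control replicate 4. The gamma chain was abundant in libraries where the alpha chain had 2 reads or fewer.

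A list of Fc receptor and related receptor genes, with Fcer1g itself among them, was then counted. In this list, 8 of 12 listed genes were tested, and 0 were DEGs by limma. By limma-voom 1 of 9 was a DEG, against 4.74% of all genes tested that way. Of the 8, 2 had an unadjusted p under 0.05, against 20.7% of all tested genes. Both SUV-OE libraries were above the controls in 2 and below in 1, against 25.4% and 28.4% of all tested genes. The median log2 fold change was 0.18. Pirb, an inhibitory receptor gene, showed 2.79 and 3.91 FPKM in the controls against 7.84 and 8.22 under SUV-OE (limma adjusted p = 0.0678). Fcgr4, an IgG receptor gene, showed 14.5 and 20.9 FPKM in the controls against 11.6 and 10.7 under SUV-OE (limma adjusted p = 0.192). In the list of IgE receptor signaling genes, 23 of 26 listed genes were tested, and 0 were DEGs by limma (1 of 25 by limma-voom). Of the 23, 6 had an unadjusted p under 0.05, against 20.7% of all tested genes. Their SUV-OE libraries were both above the controls in 6 and both below in 3, against 25.4% and 28.4% of all tested genes. The share above was thus close to that of all tested genes, and the share below was smaller. The median log2 fold change was 0.055. Fyn, a kinase gene, showed 0.566 and 0.326 FPKM in the controls against 1.55 and 1.69 under SUV-OE (limma adjusted p = 0.0988). Alox5ap, needed for leukotriene synthesis, showed 77.6 and 93.9 FPKM in the controls against 46.3 and 55.2 under SUV-OE (limma adjusted p = 0.116).

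Il5ra (ENSMUSG00000005364, chromosome 6, 106710357 to 106749037, minus strand, mm10) encodes the IL-5 receptor alpha chain and had 0.187 and 0.265 FPKM in control replicates 3 and 4 and 0.536 and 0.535 FPKM in SUV-OE replicates 2 and 3, over 13, 16, 34 and 34 reads. Each SUV-OE library was above each control, at under 1 FPKM. By limma-voom the log2 fold change was 1.25, with an adjusted p of 0.1196. Csf2rb, the beta chain shared with the IL-3 and GM-CSF receptors, showed 39.5 and 35.9 FPKM in the controls against 39.98 and 35.9 under SUV-OE (limma adjusted p = 0.981). Il3ra, the IL-3 receptor alpha chain, showed 42.9 and 42.1 FPKM in the controls against 59.5 and 51.4 under SUV-OE (limma adjusted p = 0.213). Pim1, a kinase gene downstream of these receptors, showed 8.75 and 6.92 FPKM in the controls against 16.1 and 15.9 under SUV-OE (limma adjusted p = 0.0646). In the list of this receptor system, 10 of 14 listed genes were tested, and 0 were DEGs by limma. By limma-voom 2 of 14 were DEGs, against 4.74% of all genes tested that way. Of the 10, 2 had an unadjusted p under 0.05, against 20.7% of all tested genes. Both SUV-OE libraries were above the controls in 3 and below in 1, against 25.4% and 28.4% of all tested genes. The median log2 fold change was 0.048.

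Gata2 (ENSMUSG00000015053, chromosome 6, 88193891 to 88207032, plus strand, mm10) encodes a transcription factor of progenitors that mast cells and basophils require, and it had 11.95 and 9.68 FPKM in control replicates 3 and 4 and 20.02 and 16.8 FPKM in SUV-OE replicates 2 and 3. Each SUV-OE library was above each control. The test was not passed (limma log2 fold change 0.72, SE 0.16, adjusted p = 0.113), with log2 fold changes of 0.58 to 0.86 when any one library was left out. By limma-voom the log2 fold change of Gata2 was 0.77 with an adjusted p of 0.0412, under the fold threshold of a DEG. Gata1, a factor of eosinophils, mast cells and erythroid cells, showed 0.485 and 0.899 FPKM in the controls against 2.89 and 2.56 under SUV-OE (limma log2 fold change 1.15, SE 0.19, adjusted p = 0.0735), and limma-voom called it a DEG (log2 fold change 2.05, adjusted p = 0.02402). Tal1, a partner of GATA factors, rose and was a DEG, with 0.1996 and 0.271 FPKM in the controls against 2.54 and 2.23 under SUV-OE (limma log2 fold change 1.45, SE 0.16, adjusted p = 0.0405). Irf8, a factor of monocyte development, rose as well, with 5.22 and 5.01 FPKM in the controls against 11.6 and 11.04 under SUV-OE (limma log2 fold change 1.01, SE 0.11, adjusted p = 0.0405). Tal1 and Irf8 were the 2 DEGs by limma among 24 tested regulators, Gata2 among them (3 of 24 by limma-voom, with Gata1). Over all genes, DEGs made up 1.22% by limma and 4.74% by limma-voom. Of the 24, 11 had their SUV-OE libraries both above the controls and 5 both below, against 25.4% and 28.4% of all tested genes. Cebpe, a factor of late granulocytes, showed 237 and 242 FPKM in the controls against 177 and 193 under SUV-OE (limma adjusted p = 0.262). Spi1, the gene of PU.1, showed 152 and 113 FPKM in the controls against 112 and 112 under SUV-OE (limma adjusted p = 0.5399). Kit, whose protein was used to enrich the cells, showed 20.4 and 19.2 FPKM in the controls against 28.6 and 25.4 under SUV-OE (limma adjusted p = 0.1599).

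**Figure D5:**
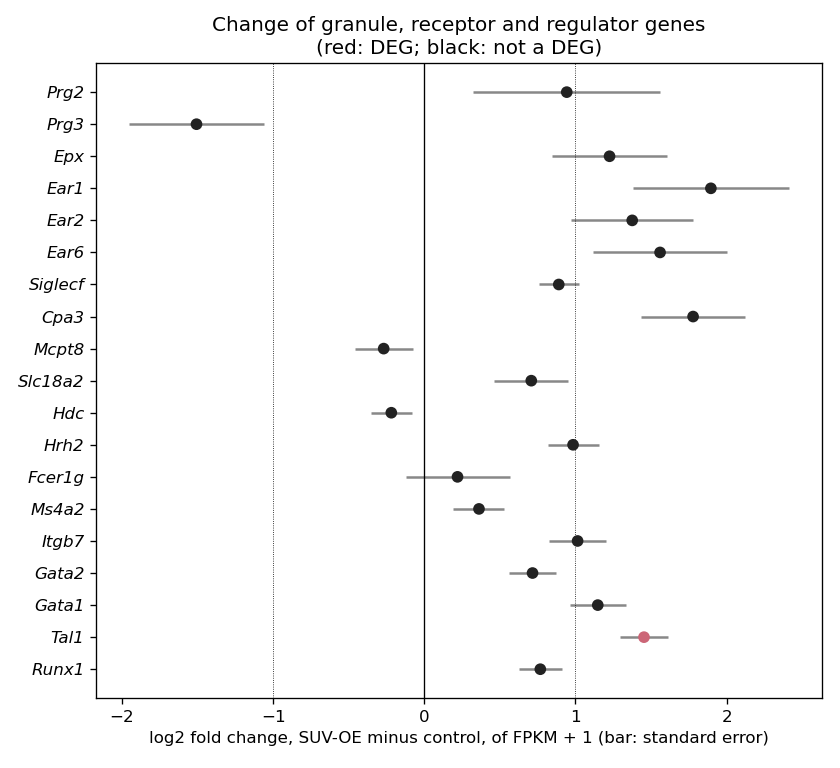
Log2 fold change of FPKM + 1, SUV-OE minus control, for tested members and listed genes (points, limma estimates, bars, standard errors, red for a DEG, black for others, dotted lines at -1 and 1). Prg3 lies at -1.51, Cpa3 at 1.78 and Gata2 at 0.72, and the red point is Tal1 at 1.45.

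Promoter sequence is shown for Prg3, Cpa3 and Epx, because Cpa3 and Epx were higher and Prg3 lower in each SUV-OE library and GATA factors act on genes of these cells. The 250 bases before the RefSeq start (GRCm38.p6, the build also called mm10) are given 5′ to 3′ on the strand of the gene. Capitals mark a GATA word on either strand, searched as the letters AGATAA or else AGATAG, and likewise TGATAA or else TGATAG. Prg3 is at chr2:84987965-84988214 (plus strand), Cpa3 at chr3:20242182-20242431 (minus strand) and Epx at chr11:87875537-87875786 (minus strand).
Prg3: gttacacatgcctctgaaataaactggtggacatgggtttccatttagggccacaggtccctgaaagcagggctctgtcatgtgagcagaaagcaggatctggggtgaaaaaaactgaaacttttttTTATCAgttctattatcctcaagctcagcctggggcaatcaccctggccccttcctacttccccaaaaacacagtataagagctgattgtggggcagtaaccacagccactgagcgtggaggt
Cpa3: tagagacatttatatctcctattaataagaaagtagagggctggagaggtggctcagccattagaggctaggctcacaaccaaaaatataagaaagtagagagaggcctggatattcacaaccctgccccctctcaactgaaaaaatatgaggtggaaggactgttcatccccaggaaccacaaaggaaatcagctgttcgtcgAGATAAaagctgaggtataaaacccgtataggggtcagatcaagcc
Epx: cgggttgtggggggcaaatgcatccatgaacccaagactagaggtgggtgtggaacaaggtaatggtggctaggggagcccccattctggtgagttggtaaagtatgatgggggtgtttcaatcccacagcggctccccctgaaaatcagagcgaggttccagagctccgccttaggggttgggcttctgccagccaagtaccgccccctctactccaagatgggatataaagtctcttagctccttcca

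A GATA word stood 123 bases before the start of Prg3 and 46 bases before that of Cpa3, and these letters were not in the Epx window. Of the 9 members with a promoter in the RefSeq table, 5 held one (Prg3, Cpa3, Fcer1a, Hdc and Il5ra), as did 27.1% of 27025 promoters of that length. The 5 included genes higher (Cpa3) and lower (Prg3 and Hdc) in each SUV-OE library. Other short words were searched in the same promoters. The E-box, which is one of them, also stood in 5 of the 9 members, against 25.3% of the 27025 promoters. The remaining words stood in 2 and 1 of the 9, against 23.1% and 9.55%. A count of 5 in 9 was thus not particular to the GATA word. A match describes letters only.

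Summed levels of markers of other blood cells are given for the same libraries. Over all tested genes, 25.4% had their SUV-OE libraries both above the controls and 28.4% both below. Upregulated DEGs by limma made up 0.815%, and DEGs of either direction by limma-voom 4.74%. In the neutrophil list 13 of 17 tested genes had their SUV-OE libraries both above the controls, 3 had them both below (the primary granule genes Mpo, Prtn3 and Ctsg) and 3 were upregulated DEGs by limma (Cd177, Ltf and Fcnb), against 9 of 17 by limma-voom. Its FPKM summed to 5905 and 8232 in control and to 10520 and 12815 under SUV-OE. Monocyte and macrophage genes (8 of 12 above, 2 below) summed to 535 and 899 in control and to 993 and 1167 under SUV-OE. Erythroid genes (7 of 12 above, 0 below, 3 upregulated DEGs by limma) summed to 21.96 and 144 in control and to 152 and 122 under SUV-OE. By comparison, the 10 members summed to 254 and 454 in control and to 468 and 444 under SUV-OE. Megakaryocyte genes (4 of 6 above, 0 below) summed to 8.46 and 15.01 in control and to 27.5 and 31.96 under SUV-OE. B-lymphoid genes (10 of 12 above, 0 below) summed to 22.2 and 31.2 in control and to 50.05 and 121 under SUV-OE. AML progenitor genes (3 of 10 above, 3 below) summed to 428 and 452 in control and to 458 and 456 under SUV-OE, and T and NK cell genes (1 of 3 above, 1 below) to 75.7 and 115 in control and to 78.5 and 84.9 under SUV-OE. By limma-voom the upregulated DEGs were 5 of 12 erythroid, 5 of 10 megakaryocyte, 5 of 12 B-lymphoid, 2 of 13 monocyte and macrophage, 1 of 10 AML progenitor and 0 of 3 T and NK cell genes. No gene of these lists that had a row was at 0 in all 4 libraries. Their part in the values of Cpa3, Epx, Prg2 and Gata2 was not tested.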

How the data were processed

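The authors made RNA-seq libraries with the TruSeq RNA v2 kit, sequenced them as paired ends and aligned reads to mm10 with TopHat2. The submitters' processing notes also name CASAVA 1.8. The deposited values are FPKM, which the methods credit to Cufflinks, and the annotation release is not given in the sources used here. Here log2(FPKM + 1) was compared with limma 3.58.1 in R 4.3.3, with the group as the term and an intensity trend, for 13736 genes whose mean FPKM was 0.5 or more. The p-values were adjusted over all of them by the Benjamini-Hochberg method. Symbols and exon lengths came from GENCODE M21, which held 23438 of the 23552 IDs. At these lengths the values of 78.5% of genes were whole reads within 0.01, and 4938 more were whole at another length. Recovered reads (mean of 10 or more) entered limma-voom and the floors of 3 reads, which cover counting error only. The fits were tested on simulated data.

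The members and gene lists were chosen with earlier results of these data known. Genes named were the members, DEGs and defining markers in the lists, the 2 genes of each list with the largest absolute log2 fold change, genes within 100 kb of members and nearest profiles, and not every such gene is printed. Hnmt, Cd200r4 and, in a plot, Runx1 were named after their values were seen. Alternatives changed the pseudocount, filter, scaling, variance model, threshold, test or set of libraries. ChIP and survival data were not analysed here.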

Additional observations from a re-analysis of the deposited data

How the results depend on the processing

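No paired analysis was possible because control replicates 3 and 4 and SUV-OE replicates 2 and 3 have 1 number in common. The 168 DEGs over all genes became 0 by limma without a filter (4177 of 23552 genes with an unadjusted p under 0.05), 342 with a threshold of 0.1 on the adjusted p, 677 with limma-voom, and 0 to 0 by limma with a library left out (1166 to 3877 genes with an unadjusted p under 0.05). A group left with a lone library was assumed to vary like the other. Members that were DEGs numbered 0, and 1, Cpa3, both with the threshold of 0.1 and with limma-voom, and 0 to 0 with a library left out. Members above in both SUV-OE libraries numbered 3, then 5 without a filter, which added Il5ra and Fcer1a. They numbered 3 to 5 with a library left out, the most without control replicate 4. Of all 13736 tested genes 3495 had that order, and 5541 without control replicate 4. Without a filter 6052 of 23552 genes did. Members below numbered 2, then 1 after quantile normalization and 2 to 4 with a library left out, the most without control replicate 3. Of all 13736 tested genes 3907 lay below, 3750 after quantile normalization and 5962 without control replicate 3. With a library left out, the median log2 fold change of the members ranged from -0.013 (without control replicate 3) to 0.63 (without control replicate 4), and with limma-voom, over 9 members, it was 0.77. With a library left out, Hdc ranged from -0.34 to -0.10 and Mcpt8 from -0.45 to -0.085. Fcer1g ranged from -0.25 to 0.69 with a library left out and was the one member tested that changed sign under any alternative run. The cause was not tested. Fcer1a had at most 2 reads a library.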

Other observations

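Profiles of log2(FPKM + 1) over the 4 libraries, centred on their mean, were compared with those of the members by the root mean square difference. Nearest to Cpa3 was Ly6g, a neutrophil surface gene, at 0.0577, with 0.655 and 2.64 FPKM in the controls against 7.72 and 7.404 under SUV-OE. Nearest to Fcer1g was Cklf, a chemokine-like gene, at 0.008995, with 6.74 and 13.9 FPKM in the controls against 10.4 and 12.4 under SUV-OE. Nearest to Gata2 was Fzd7, a Wnt receptor gene, at 0.02804, with 1.92 and 1.48 FPKM in the controls against 3.92 and 2.97 under SUV-OE. These are descriptions over 4 libraries, with no test.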
